A study of Mus musculus with 6 samples.

Results

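DNA replication genes encode the proteins that copy the genome once in each cell cycle. In G1 the origin recognition complex, with Cdc6 and Cdt1, loads the Mcm2 to Mcm7 helicase onto origins, which is called licensing. At the start of S phase Cdc45 and the GINS proteins join and activate the helicase, polymerases with their clamp and clamp loader copy the strands, and ribonucleotide reductase and related enzymes supply the deoxynucleotides. Transcripts of most of these genes are made under E2F control around the G1/S transition, so that in a developing kidney they are abundant in dividing cells and low in cells that have left the cycle.

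The 48 genes described here were chosen by name, from origin recognition to chromatin assembly. All 48 were among the 13203 genes of the table, and the rule uses their names only. The table holds RNA of 6 whole mouse kidneys at stage E17.5, sequenced after removal of ribosomal RNA. Control kidneys (n = 3) carried Brg1 flx/flx, and mutant kidneys (n = 3) carried Brg1 flx/flx with Six2Cre. Six2Cre acts in the nephron progenitors and their descendants, while stroma, ureteric bud, vessels and blood of the same organ lie outside that lineage. The control labels name no Cre, and effects of Six2Cre and of the deletion cannot be told apart. Smarca4 is the gene of Brg1, an ATPase of SWI/SNF, a complex that moves nucleosomes, and the series title asks how it acts on proliferation and differentiation of these progenitors.

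Values are normalised coverage in kb, the bases sequenced over a gene scaled by the authors to a common library total and not divided by gene length. Libraries con1, con2 and con3 are control and mut1, mut2 and mut3 mutant, and before scaling they held 726 to 1130 Mb in control and 934 to 1210 Mb in mutant. Changes are log2 fold changes of mutant against control of log2(value + 1), given with their standard error (SE) from limma and p-values adjusted by Benjamini-Hochberg over all 13203 genes. A gene was called at an adjusted p under 0.05. Smarca4 itself covered 434, 419 and 371 kb in control and 316, 333 and 268 kb in mutant, all mutant values below all control values (log2 fold change -0.42, SE 0.10, adjusted p = 0.00481). Adjusted for length and GC content over all genes, its change was -0.68. The exact two-sided permutation test gave p = 0.1, which is the smallest possible with 3 against 3. In a whole organ, fewer cells of a type and less RNA per cell cannot be told apart.

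DNA replication transcripts were lower in the mutant kidneys. Of the 48 genes, 35 fell, 0 rose and 13 did not pass, against 24.6% of all genes called lower and 21.5% called higher (46.1% either way). At an unadjusted p under 0.05, 38 were lower, against 3746 of all 13203 genes. The median log2 fold change of the 48 genes was -0.45, a level of 73.3% of control, while the median of all genes was -0.03. In 34 genes the 3 mutant values lay all below the 3 control values, and in 0 all above, where 29.8% and 26.5% of all genes did so. Changes were moderate, from -1.04 for Ccne2 to 0.22 for Mcm6, and only Ccne2 changed at least 2-fold, counted on the log2 scale. In the authors' deposited table none (0) of the 48 stood in the lists of 725 higher and 780 lower genes, which required a 2-fold ratio. A deposited q under 0.05 was found for 37, all 37 with a ratio under 1. The share of all genes at that q was not computed, so the 37 cannot be set against a background. Deposited q can lie below the deposited p, as for Rpa1 (q 0.0489, p 0.0873).

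**Figure D1:**
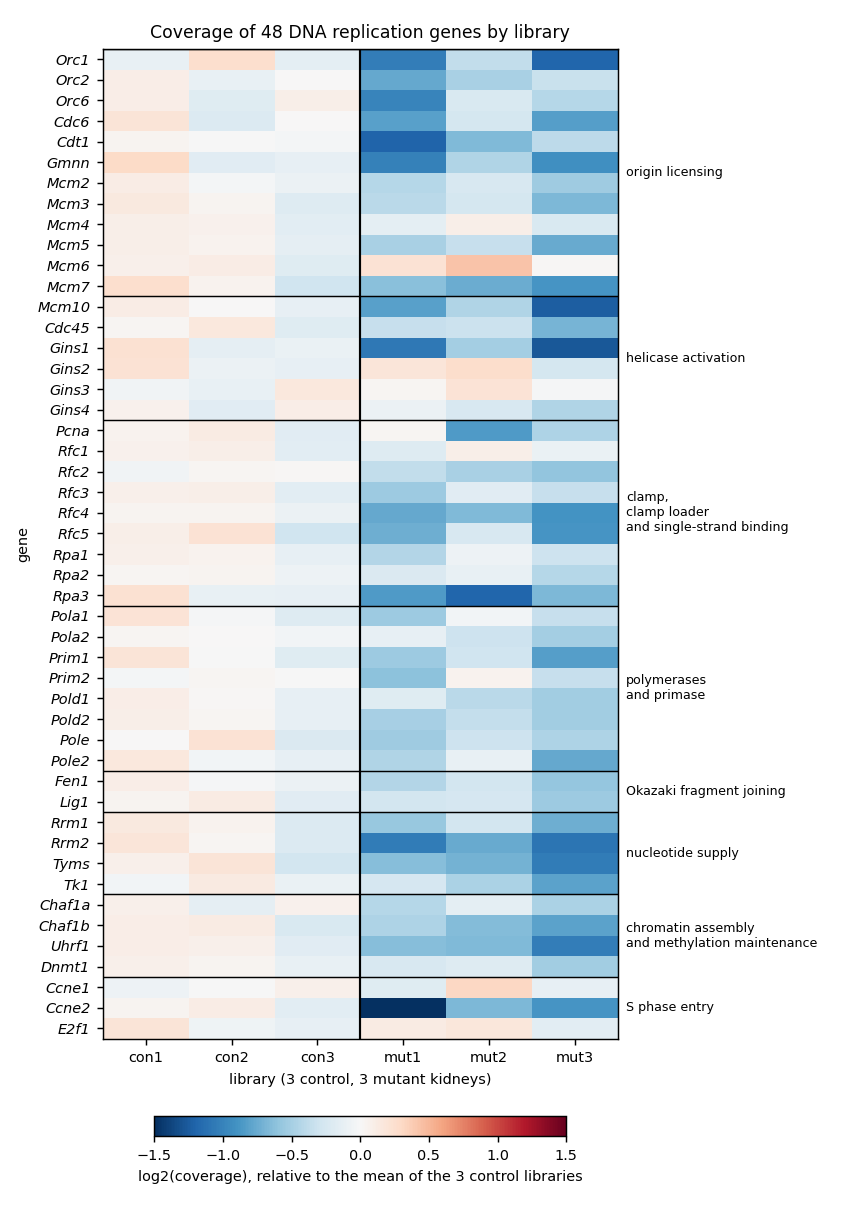
Coverage of the 48 genes in each library (columns, 3 control and 3 mutant kidneys) as log2 values relative to the mean of the 3 control libraries, with genes (rows) ordered by role. Blue marks lower and red higher levels; most rows are blue in all 3 mutant columns, with mut2 the palest, while Mcm4, Mcm6, Gins2, Gins3, Pcna, Rfc1, Prim2, Ccne1 and E2f1 were above the control mean in at least 1 mutant library.

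The genes moved together within groups as well as between them. Among the mutant libraries mut2 was the highest in 35 of the 48 genes and mut3 the lowest in 34. Of the controls, con3 was the lowest in 37 genes and con1 the highest in 29. Summed over the 48 genes, coverage was 4.37, 4.2 and 3.73 Mb in con1 to con3, and 3.12, 3.42 and 2.77 Mb in mut1 to mut3. The lowest control sum thus stood above the highest mutant sum. The 35 calls are therefore not 35 independent observations. Without con1 the number of genes called lower was 22, and without con2 it was 23, against 19.1% and 19.5% of all genes called lower in those fits. With Benjamini-Hochberg adjustment of the authors' deposited p-values 14 passed, against 16.7% of all genes. The ranges of adjusted p-values given below with single genes include those from the authors' p-values. Calls lost only with the authors' p-values were those of Cdc6 (0.0944), Gmnn (0.0757), Mcm2 (0.0511), Mcm3 (0.0949), Mcm7 (0.0605) and Rrm1 (0.0803). In 18 of the 48 genes exons overlap another gene of the table or have a near-identical copy, and 20 of the other 30 were called lower. Of the 35 called genes, 19 held without each library in turn and all 35 kept their sign in each alternative in which they were tested. With the authors' p-values, without the variance trend or with a filter at the median level, the sign could not change. Those alternatives keep the main log2 fold change.

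Origin licensing genes fell in 10 of 12 cases, with a median log2 fold change of -0.54 (68.7% of control). Both that did not pass, Mcm4 and Mcm6, encode subunits of the helicase itself. Orc1, the origin recognition subunit whose level cycles with cell division, lies at chromosome 4, 108579423 to 108614833, plus strand (mm10). Controls held 11.8, 15.1 and 11.5 kb of it, mutants 6.21, 9.8 and 5.58 kb. The groups did not overlap, mut2 was nearest to the controls, and the gene fell (log2 fold change -0.86, SE 0.23, adjusted p = 0.00999). The call was lost without con2 (0.0502), over adjusted p-values of 0.0015 to 0.0789. Orc2, a core subunit of the complex, covered 58.1, 49.9 and 54.4 kb in control and 31.7, 38.7 and 42.9 kb in mutant. It fell with no overlap (log2 fold change -0.53, SE 0.13, adjusted p = 0.00518). Part of its exons overlaps Nif3l1 on the other strand, and Nif3l1 did not pass (log2 fold change -0.16). Orc6, the smallest subunit, was at 30.9, 25.5 and 30.7 kb in control and 14.5, 24.6 and 21.5 kb in mutant. Con2 and mut2 nearly met, and the fall (log2 fold change -0.56, SE 0.18, adjusted p = 0.0276) was lost without con1 (0.0869), con3 (0.0784) or mut1 (0.0756) and under quantile normalization (0.0567), without the variance trend (0.0659) or after adjusting for length and GC (0.135), over adjusted p-values of 0.0081 to 0.135. After that adjustment its change was -0.31. Without mut1 it was -0.33. Vps35, which overlaps 114 exon bases of Orc6 on the other strand, fell too (log2 fold change -0.26, adjusted p = 0.0403).

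Cdc6, the ATPase that brings the helicase to the origin complex, covered 42.6, 32.3 and 37.3 kb in control and 21.1, 30.9 and 21 kb in mutant libraries. It fell, and mut2 came within reach of con2 without crossing it (log2 fold change -0.64, SE 0.17, adjusted p = 0.00858). An annotated copy, Gm9430, matches 1528 of its bases at 95.223%. Cdt1, the partner of Cdc6 in helicase loading, had the lowest control depth per exon base of the 48 genes, 3.15 ± 0.0712 (SD, n = 3). Its coverage was 7.06, 6.85 and 6.75 kb against 3, 4.36 and 5.23 kb, with close controls and spread mutants. The fall (log2 fold change -0.75, SE 0.26, adjusted p = 0.0328) was lost without con1 (0.0918), con2 (0.0799), con3 (0.0697) or mut1 (0.095), over adjusted p-values of 0.0217 to 0.095. Gmnn encodes geminin, which binds and blocks Cdt1 outside G1. It stood at 26.6, 19.4 and 20.1 kb in control and 10.8, 16 and 11.5 kb in mutant and fell without overlap (log2 fold change -0.80, SE 0.19, adjusted p = 0.00475). Within each library the ratio of Cdt1 to Gmnn coverage was 0.265, 0.353 and 0.335 in control and 0.279, 0.272 and 0.454 in mutant. The ranges overlapped, and the difference of log2 ratios, 0.04, was smaller than the SD of 0.42 among the mutants (exact permutation p = 0.8). The sign of the difference turned without con1 (-0.08) or mut3 (-0.20).

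The 6 helicase subunits, which act as 1 ring with a copy of each, differed in their changes. Mcm2 (chromosome 6, 88883474 to 88898780, minus strand) covered 277, 253 and 243 kb in control and 192, 218 and 178 kb in mutant and fell without overlap (log2 fold change -0.40, SE 0.09, adjusted p = 0.00486). Mcm3, at 297, 275 and 234 kb against 202, 222 and 168 kb, fell as well (log2 fold change -0.45, SE 0.12, adjusted p = 0.00864), and its highest mutant library, mut2, stayed just under con3. Mcm5 went from 281, 274 and 242 kb to 190, 209 and 157 kb and fell with clear separation (log2 fold change -0.53, SE 0.11, adjusted p = 0.00212). The largest fall of the ring was that of Mcm7, from 138, 120 and 94.6 kb in control to 75.4, 69.1 and 62.8 kb in mutant (log2 fold change -0.75, SE 0.13, adjusted p = 0.000776). The groups were apart, but a near-identical annotated copy, Gm5487 (97.682% over 2157 bases), and the overlapping genes Ap4m1 and Cops6 make its coverage uncertain. Mcm4 covered 141, 138 and 119 kb in control and 120, 141 and 113 kb in mutant. These ranges overlapped and the gene did not pass (log2 fold change -0.09, SE 0.11, adjusted p = 0.515). Adjusted for length and GC, its log2 fold change was 0.02. Mcm6, at 109, 112 and 91.5 kb against 121, 140 and 105 kb, was the only gene of the 48 whose mean log2 value was more than 0.1 above control, with mut3 inside the control range. It did not pass (log2 fold change 0.22, SE 0.12, adjusted p = 0.143), except without mut3 (0.0493), over adjusted p-values of 0.0493 to 0.427.

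Ratios within a library do not depend on how that library was scaled, and they differed between subunits. Relative to the mean log2 coverage of the 6 genes, Mcm6 was at -0.82, -0.69 and -0.77 in control and -0.23, -0.15 and -0.23 in mutant. All mutant values were above all control values, a relative gain of 0.56 (SD 0.06 and 0.05, n = 3 each). Mcm4 gained 0.24 and was also apart. Mcm7 went the other way, from -0.47, -0.60 and -0.72 to -0.91, -1.16 and -0.97, a relative change of -0.42. Mcm5 (-0.20) and Mcm3 (-0.12) were apart on the lower side, while Mcm2 (-0.07) overlapped. All 6 genes enter the mean, also Mcm7 with its uncertain coverage. The 6 relative changes are therefore not independent, and a gain of 1 gene lowers the others. Each ratio without overlap had an exact two-sided permutation p = 0.1, the smallest that 3 against 3 allows, and 0.143 after adjustment over the 10 ratios computed. Per exon base, control depth was highest for Mcm3 (88.7 ± 10.5), followed by Mcm5 (76.9 ± 5.94) and Mcm2 (76.5 ± 5.20), which did not differ beyond their spread. Mcm7 (39.7 ± 7.40) and Mcm4 (37 ± 3.40) came next and also lay within their spread, and Mcm6 was lowest at 23.8 ± 2.52. In mutant the order of the last genes was Mcm4 (34.8 ± 4.13), Mcm6 (27.8 ± 4.02) and Mcm7 (23.3 ± 2.13).

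**Figure D2:**
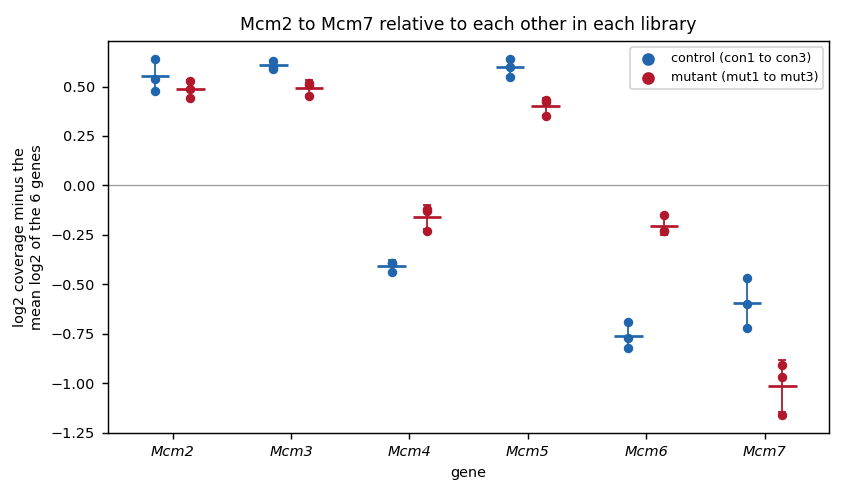
Log2 coverage of each Mcm2 to Mcm7 gene minus the mean log2 coverage of the 6 genes in the same library, not divided by length (points are libraries, horizontal lines means, bars SD, n = 3 per group). Mcm4 and Mcm6 were higher relative to the other subunits in all 3 mutant kidneys and Mcm7 lower, while Mcm2 overlapped.

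Promoters were compared because replication genes are classic E2F targets. RefSeq windows of 300 bases (250 before and 50 after the annotated start, GRCm38.p6) were at hand for 39 of the 48 genes. For 7 of these more than 1 window was listed, and only the first was used. The letters TTTCCCGC, TTTGGCGC, TTTCGCGC or TTTGCCGC, forms of the E2F consensus, were searched on both strands. They occurred in 12 of 39 windows (30.8%), against 4.12% of 9603 first windows of genes in the table and 2.26% of all 32851 windows of that length. CCAAT, on either strand, occurred in 25 of 39 (64.1%) and in 38.7% of the 9603. Of the genes that fell 8 of 30 with a window held an E2F-type match, and of those that did not pass 4 of 9. The median log2 fold change was -0.45 with a match and -0.46 without, given as a description. Windows of 5 genes with matches are shown, in transcript direction, because the genes run from Orc1, with a large fall, to Mcm6, which did not pass. Capitals mark E2F-type matches on either strand. They are Orc1 (chr4:108579204-108579503, plus strand), Mcm3 (chr1:20820263-20820562, minus strand), Mcm5 (chr8:75109259-75109558, plus strand), Mcm6 (chr1:128359656-128359955, minus strand) and Rfc3 (chr5:151651159-151651458, minus strand).
Orc1: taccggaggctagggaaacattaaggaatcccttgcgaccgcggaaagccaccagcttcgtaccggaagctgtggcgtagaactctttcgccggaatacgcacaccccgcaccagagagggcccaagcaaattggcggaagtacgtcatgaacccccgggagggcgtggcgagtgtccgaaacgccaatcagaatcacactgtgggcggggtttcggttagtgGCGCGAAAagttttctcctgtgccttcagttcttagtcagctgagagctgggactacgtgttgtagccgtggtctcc
Mcm3: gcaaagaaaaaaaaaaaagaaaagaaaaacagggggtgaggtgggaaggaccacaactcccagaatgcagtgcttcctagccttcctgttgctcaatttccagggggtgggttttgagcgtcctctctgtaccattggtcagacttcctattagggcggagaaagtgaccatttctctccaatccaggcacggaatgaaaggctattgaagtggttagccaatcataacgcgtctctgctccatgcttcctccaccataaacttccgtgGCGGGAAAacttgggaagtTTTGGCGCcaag
Mcm5: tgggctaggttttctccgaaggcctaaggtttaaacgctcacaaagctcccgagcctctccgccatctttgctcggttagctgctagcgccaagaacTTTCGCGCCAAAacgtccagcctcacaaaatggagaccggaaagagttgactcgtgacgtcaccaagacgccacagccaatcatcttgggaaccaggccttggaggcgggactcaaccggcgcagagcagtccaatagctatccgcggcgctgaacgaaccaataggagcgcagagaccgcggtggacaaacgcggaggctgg
Mcm6: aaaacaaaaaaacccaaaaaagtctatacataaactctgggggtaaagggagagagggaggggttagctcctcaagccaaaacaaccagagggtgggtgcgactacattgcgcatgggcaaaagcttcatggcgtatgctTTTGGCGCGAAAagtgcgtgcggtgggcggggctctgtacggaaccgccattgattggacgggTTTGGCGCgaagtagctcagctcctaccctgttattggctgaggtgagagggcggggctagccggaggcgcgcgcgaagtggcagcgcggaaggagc
Rfc3: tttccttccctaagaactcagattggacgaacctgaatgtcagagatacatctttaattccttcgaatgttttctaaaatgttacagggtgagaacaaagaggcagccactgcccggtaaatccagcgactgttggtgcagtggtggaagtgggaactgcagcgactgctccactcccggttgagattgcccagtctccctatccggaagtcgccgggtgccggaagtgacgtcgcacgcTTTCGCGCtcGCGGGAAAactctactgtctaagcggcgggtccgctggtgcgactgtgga
Mcm6, which did not pass, held 3 matches, of which a pair overlapped, while Mcm5, which fell, held 2 that overlapped on opposite strands. Orc1 held 1.

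Genes of helicase activation were split, with 3 of 6 lower and a median log2 fold change of -0.36. Mcm10, which acts in activating the loaded helicase, covered 58.6, 54.4 and 49.6 kb in control and 30.7, 39.7 and 23 kb in mutant. It fell well clear of the controls, furthest in mut3 (log2 fold change -0.83, SE 0.17, adjusted p = 0.00204). Cdc45, part of the active helicase, was at 31.4, 34.5 and 27.2 kb against 24.4, 24.8 and 19.1 kb. Its fall (log2 fold change -0.45, SE 0.14, adjusted p = 0.0231) was lost without con1 (0.068), con2 (0.103) or mut3 (0.0911) and under quantile normalization (0.0588) or after adjusting for length and GC (0.0524), over adjusted p-values of 0.0067 to 0.103. The GINS complex, 4 small subunits that join the helicase together with Cdc45, was unequal. Gins1 went from 14, 10.9 and 11.1 kb to 5.65, 8.36 and 4.95 kb and fell without overlap (log2 fold change -0.95, SE 0.23, adjusted p = 0.00545), a call lost after adjusting for length and GC (0.0503), over adjusted p-values of 0.0013 to 0.0531. Its change after that adjustment was -0.60. Gins2 was at 34.4, 28 and 27.2 kb in control and 33.8, 35.7 and 24.8 kb in mutant, with overlapping groups (log2 fold change 0.07, SE 0.15, adjusted p = 0.754). Its annotated exons share 2758 bases with Gse1 on the other strand, and Gse1 rose (log2 fold change 0.46), so its coverage may hold reads of both genes. Gins3 did not pass either, at 13.8, 13.3 and 16 kb and 14.6, 16.5 and 14.1 kb with the mutants inside the control range or above it (log2 fold change 0.07, SE 0.15, adjusted p = 0.72). Gins4 covered 38.9, 32.9 and 39.8 kb and 34.8, 31.4 and 27.1 kb, and mut1 lay inside the control range (log2 fold change -0.26, SE 0.13, adjusted p = 0.117). Whether Gins1 differed in its change from the other GINS genes was not tested.

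Of the 9 genes of clamp, clamp loader and single-strand binding, 6 fell and 3 did not pass, with a median of -0.42. Pcna, the ring that tethers polymerases to DNA, covered 113, 118 and 96.3 kb in control and 111, 60.5 and 78.6 kb in mutant. Mut1 stood among the controls and mut2 far below, so the groups overlapped and the gene did not pass (log2 fold change -0.42, SE 0.18, adjusted p = 0.0697). It passed without mut1 (0.00243) and with array weights (0.011), over adjusted p-values of 0.00243 to 0.512. A near-identical annotated copy, Pcna-ps2 (99.232% over 781 bases), makes its coverage uncertain. Rfc1, the large subunit of the clamp loader, was at 149, 152 and 128 kb and 125, 152 and 133 kb, with overlapping ranges (log2 fold change -0.07, SE 0.10, adjusted p = 0.625). The 4 small subunits fell. Rfc2 went from 72.3, 77 and 76.3 kb to 58.4, 53.7 and 49.9 kb, tight in each group and apart (log2 fold change -0.48, SE 0.10, adjusted p = 0.00173). Exons of Lat2 on the other strand overlap 952 of its bases. Rfc4 had the largest fall of the loader, from 22.7, 22.6 and 20.7 kb to 12.9, 13.9 and 11.8 kb, again with no overlap (log2 fold change -0.77, SE 0.14, adjusted p = 0.000803). Adjusted for length and GC, it fell by less, at -0.43. Eif4a2 on the other strand overlaps 194 of its exon bases and did not pass (log2 fold change -0.28). Coverage of Rfc4 may therefore hold reads of both genes. Rfc5 covered 40.2, 44.2 and 30.8 kb and 22.8, 32.1 and 20.6 kb, where mut2 exceeded con3 (log2 fold change -0.62, SE 0.18, adjusted p = 0.0146). This call was lost without con1 (0.0504), con2 (0.0692) or mut3 (0.0646), over adjusted p-values of 0.00207 to 0.132, and it has a copy, Gm12870 (96.176% over 1020 bases). Wsb2 on the other strand overlaps 499 exon bases of Rfc5 and fell as well (log2 fold change -0.34, adjusted p = 0.0233). Coverage of Rfc5 may therefore hold reads of Wsb2. Rfc3 was at 39.7, 40.1 and 33.7 kb and 25.9, 33.4 and 29.7 kb, with mut2 just below con3, and its call (log2 fold change -0.35, SE 0.13, adjusted p = 0.0395) was lost without con1 (0.127), con2 (0.136), mut1 (0.113) or mut3 (0.0798) and with trimmed-mean scaling (0.0534), under quantile normalization (0.118), with the median gene centred (0.0504), without the variance trend (0.0636) or after adjusting for length and GC (0.444), over adjusted p-values of 0.0197 to 0.444. After that adjustment it was at -0.12.

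Replication protein A coats single-stranded DNA at the fork. Rpa1, its large DNA-binding subunit, covered 174, 171 and 151 kb in control and 122, 156 and 133 kb in mutant, with mut2 inside the control range. The fall was at the edge of the threshold (log2 fold change -0.27, SE 0.10, adjusted p = 0.0493) and was lost without con1 (0.16), con2 (0.147), mut1 (0.138) or mut3 (0.12) and with trimmed-mean scaling (0.0697), under quantile normalization (0.0636), with the median gene centred (0.0645) or without the variance trend (0.116), over adjusted p-values of 0.00746 to 0.16. Rpa2, the middle subunit, was at 70.4, 71.5 and 65.9 kb and 59.7, 63.9 and 51.3 kb. The groups did not overlap, yet it did not pass (log2 fold change -0.25, SE 0.10, adjusted p = 0.0653), except without mut2 (0.0334) and with array weights (0.0244) or without small RNA and globin coverage (0.0462), over adjusted p-values of 0.0244 to 0.226. Rpa3, the smallest subunit, went from 8.45, 6.7 and 6.66 kb to 4, 3.17 and 4.52 kb and fell, with mut2 lowest (log2 fold change -0.91, SE 0.24, adjusted p = 0.0104). Its transcript is the shortest of the 48 (670 exon bases), and its change was -0.18 with length and GC adjusted for. The call was lost without con1 (0.0578) and after adjusting for length and GC (0.555), over adjusted p-values of 0.00551 to 0.555.

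Polymerase and primase genes fell in 5 of 8 cases and were below control in all 8 by log2 fold change, within a narrow range of -0.56 to -0.30 and a median of -0.40. The count was 2 of 8 without con1 or without con2, where 19.1% and 19.5% of all genes were called lower. Without mut3 it was 3 of 8, where 2790 of 13203 genes were called lower. Pola1, the catalytic subunit of the polymerase that starts each strand, covered 93.3, 79.7 and 70.8 kb in control and 55.4, 78.5 and 63.3 kb in mutant. Mut2 lay among the controls and the gene did not pass (log2 fold change -0.31, SE 0.14, adjusted p = 0.0843), except without con3 (0.046) or mut2 (0.0156), over adjusted p-values of 0.0156 to 0.299. Its partner Pola2 was at 76.1, 74.8 and 72.7 kb and 68.7, 60.3 and 52.4 kb, apart (log2 fold change -0.31, SE 0.11, adjusted p = 0.0346), a call lost without con1 (0.101), con2 (0.093), con3 (0.0594), mut2 (0.06) or mut3 (0.133) and with trimmed-mean scaling (0.0521), under quantile normalization (0.0618) or without the variance trend (0.0729), over adjusted p-values of 0.0069 to 0.133. Prim1, the subunit that makes RNA primers, fell from 39.6, 34.5 and 30.6 kb to 23.8, 28.1 and 19.5 kb without overlap (log2 fold change -0.56, SE 0.15, adjusted p = 0.0108). This was lost without con1 (0.0542) and after adjusting for length and GC (0.13), over adjusted p-values of 0.0037 to 0.13. After that adjustment the change was -0.29. Prim2, its regulatory partner, had close controls at 32.7, 34 and 33.2 kb and scattered mutants at 21.8, 34.6 and 26.1 kb, of which mut2 was above all controls. It did not pass (log2 fold change -0.30, SE 0.16, adjusted p = 0.131), except without mut2 (0.0118), over adjusted p-values of 0.0118 to 0.407.

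Pold1 encodes the catalytic subunit of the lagging-strand polymerase. It went from 98.8, 94 and 85.3 kb to 81.4, 69.9 and 64.3 kb and fell without overlap (log2 fold change -0.37, SE 0.11, adjusted p = 0.0141), lost without con1 (0.0649), con2 (0.0515) or mut3 (0.0597), over adjusted p-values of 0.00127 to 0.0766. Pold2, a subunit of the same enzyme, had the smallest SE of the polymerase genes, at 96.7, 92.7 and 83.8 kb and 64.5, 70.9 and 63.5 kb. The groups were well apart (log2 fold change -0.46, SE 0.09, adjusted p = 0.00226). Pole, the catalytic subunit of the leading-strand polymerase, covered 57.6, 66.8 and 49.5 kb and 39.6, 46.3 and 41.8 kb and fell (log2 fold change -0.44, SE 0.12, adjusted p = 0.0128). That call was lost without con2 (0.0711), over adjusted p-values of 0.000723 to 0.0997, and the fall was -0.67 with length and GC adjusted for. Pole2 was at 12.4, 10.8 and 10.2 kb and 8.11, 10.3 and 6.54 kb, where mut2 reached the control range. It did not pass (log2 fold change -0.44, SE 0.20, adjusted p = 0.0941), except without mut2 (0.0321) and with array weights (0.0488), over adjusted p-values of 0.0321 to 0.426. The ratio of Pola1 to Pole coverage was 1.62, 1.19 and 1.43 in control and 1.40, 1.7 and 1.51 in mutant, with overlapping groups (log2 difference 0.13, exact permutation p = 0.5). That difference was 0.23 without con1, 0.01 without con2, 0.05 without mut2 and 0.40 after adjusting for length and GC.

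Both genes of Okazaki fragment joining fell. Fen1, the nuclease that trims the flaps left by primers, covered 121, 111 and 106 kb in control and 83.1, 92.9 and 75.5 kb in mutant. The groups were apart (log2 fold change -0.43, SE 0.10, adjusted p = 0.00479), although an annotated antisense gene, Gm10143, overlaps 1909 of its exon bases. Tmem258, also on the other strand, shares 130 exon bases with Fen1 and fell (log2 fold change -0.51, adjusted p = 0.032). Lig1, the ligase that seals the fragments, went from 124, 131 and 107 kb to 99.6, 101 and 82.6 kb, also apart (log2 fold change -0.35, SE 0.11, adjusted p = 0.0207). The call was lost without con1 (0.071), con2 (0.0971) or mut3 (0.0866) and without the variance trend (0.0622), over adjusted p-values of 0.00519 to 0.106.

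All 4 genes of nucleotide supply fell, and their median of -0.66 (63.2% of control) was the lowest among the roles. Origin licensing followed at -0.54 and the polymerases at -0.40, values given as a description with no test of the difference between roles. Rrm2, the small subunit of ribonucleotide reductase and the one whose level follows S phase, covered 95.6, 85.8 and 72.8 kb in control and 40.8, 49.9 and 39.5 kb in mutant. Every mutant library stood well below every control, and it had the lowest adjusted p of the 48 (log2 fold change -0.96, SE 0.13, adjusted p = 0.000106). An annotated copy, Gm48455, matches 419 of its bases at 95.465%. Rrm1, the large and more stable subunit, fell less, from 308, 289 and 242 kb to 188, 229 and 167 kb (log2 fold change -0.53, SE 0.12, adjusted p = 0.00451), with mut2 just below con3. The ratio of Rrm2 to Rrm1 coverage was 0.311, 0.297 and 0.300 in control and 0.217, 0.218 and 0.237 in mutant. These groups were tight and apart, a log2 difference of -0.44 between groups with SDs of 0.03 and 0.07 (exact permutation p = 0.1, the smallest possible, 0.143 adjusted over the 10 ratios). Tyms, thymidylate synthase, went from 55.1, 59.5 and 43.2 kb to 33.6, 31.8 and 25.1 kb and fell with no overlap (log2 fold change -0.80, SE 0.15, adjusted p = 0.0011). Stretches of its exons match several other genes at 95% or more. Tk1, the salvage kinase for thymidine, was at 25.7, 29 and 24.6 kb and 22.1, 19 and 15.1 kb. It fell without overlap (log2 fold change -0.51, SE 0.15, adjusted p = 0.0184), a call lost without con2 (0.0794) or mut3 (0.0713), over adjusted p-values of 0.00433 to 0.0811.

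The 4 genes that restore chromatin behind the fork fell as well, with a median of -0.50. Chaf1b, a subunit of the chromatin assembly factor that deposits histones on new DNA, covered 54.8, 55.7 and 43.7 kb in control and 37.2, 32.5 and 29.2 kb in mutant. The groups were apart (log2 fold change -0.64, SE 0.13, adjusted p = 0.0021). Chaf1a, the large subunit, was at 49.9, 43.1 and 49.4 kb and 35.1, 42.8 and 34 kb, with mut2 just below con2 (log2 fold change -0.35, SE 0.12, adjusted p = 0.0304). The call was lost without con1 (0.107), con3 (0.0888), mut1 (0.0706) or mut3 (0.106) and under quantile normalization (0.0756) or without the variance trend (0.0568), over adjusted p-values of 0.00219 to 0.107, and 2692 of its exon bases overlap Ubxn6. The change of Chaf1a after adjusting for length and GC was -0.57. Uhrf1 brings the maintenance methyltransferase to newly copied DNA. It fell from 229, 224 and 189 kb to 137, 135 and 104 kb, with mut3 lowest (log2 fold change -0.78, SE 0.12, adjusted p = 0.00029). It has an annotated copy, Gm5648 (98.302% over 1590 bases). Dnmt1, that methyltransferase, had the highest coverage of the 48, at 401, 391 and 354 kb and 323, 333 and 266 kb, and fell (log2 fold change -0.32, SE 0.10, adjusted p = 0.02). Adjusted for length and GC, its log2 fold change was -0.56. The call was lost without con1 (0.0816), con2 (0.073) or mut3 (0.0808) and without the variance trend (0.0696), over adjusted p-values of 0.000461 to 0.0949.

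Genes of S phase entry were mixed, with 1 of 3 lower and a median of 0.01. Ccne2, a cyclin E that activates Cdk2, had the largest fall of the 48, from 24, 25.2 and 20.9 kb in control to 7.92, 14.6 and 12.6 kb in mutant. Mut1 was lowest and no library overlapped (log2 fold change -1.04, SE 0.21, adjusted p = 0.00192). Its paralog Ccne1 covered 35, 36.7 and 38.8 kb and 32.5, 45.7 and 33.8 kb, with mut2 above and the other two below the controls, and did not pass (log2 fold change 0.01, SE 0.14, adjusted p = 0.979). The ratio of Ccne2 to Ccne1 coverage was 0.687, 0.686 and 0.537 in control and 0.243, 0.319 and 0.373 in mutant. The groups did not overlap (log2 difference -1.04, SDs 0.20 and 0.31, exact permutation p = 0.1, adjusted 0.143). Exons of Ccne2 share 609 bases with Ints8 on the other strand, which did not pass (log2 fold change -0.20). E2f1, a transcription factor that switches on S phase genes, was at 41.2, 34.7 and 33.1 kb in control and 39.5, 40.8 and 32.4 kb in mutant. These ranges overlapped and it did not pass (log2 fold change 0.05, SE 0.13, adjusted p = 0.788).

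**Figure D3:**
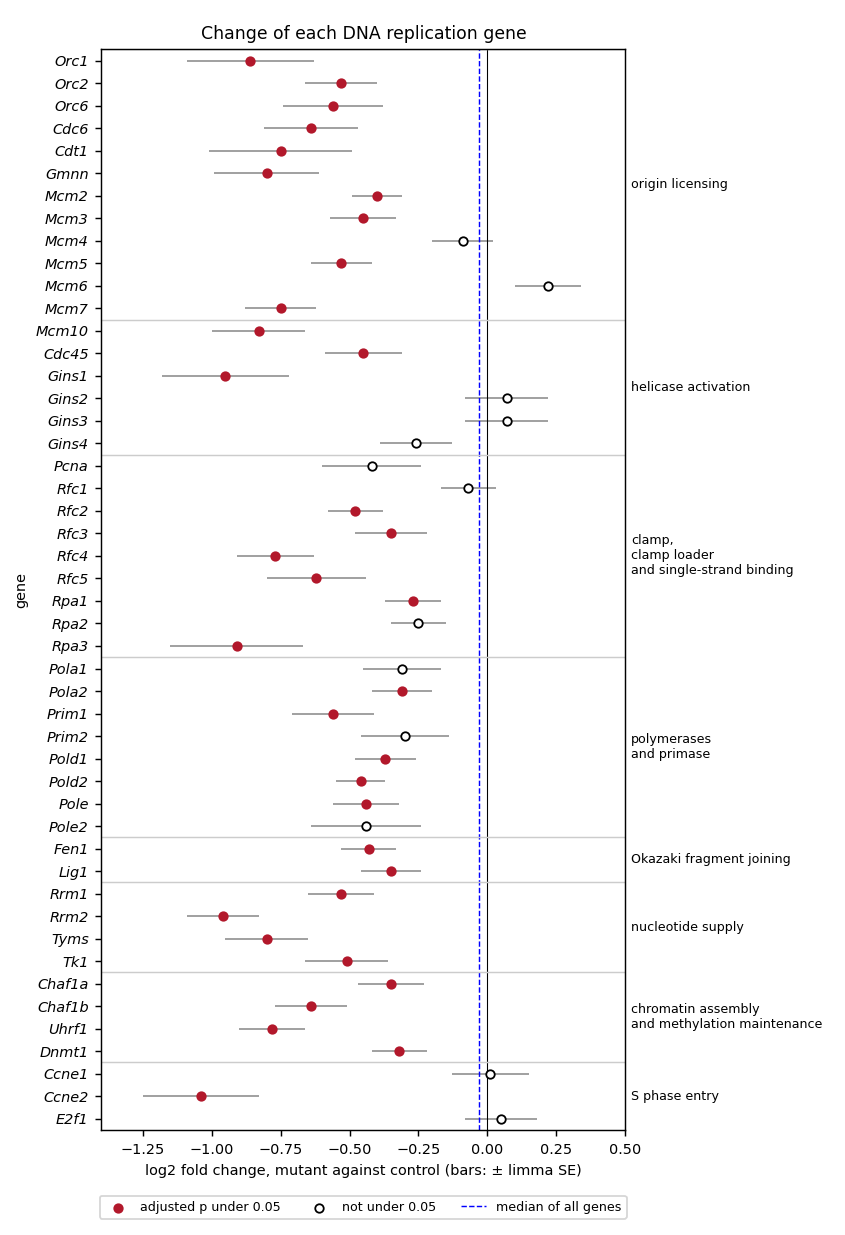
Log2 fold change of each gene, mutant against control, with the limma SE as bars (n = 3 per group); filled points passed at adjusted p under 0.05 and the dashed line is the median of all genes, -0.03. Filled points run from -1.04 (Ccne2) to -0.27 (Rpa1), and open points include Mcm6 at 0.22 and Mcm4, Gins2, Gins3, Rfc1, Ccne1 and E2f1 within 0.1 of 0.

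Further genes of DNA replication were lower too. Of 80 measured genes in 8 lists 43 fell, 0 rose and 37 did not pass, with a median of -0.39, where 24.6% of all genes were called lower and 21.5% higher. Among other enzymes of nucleotide supply 12 of 16 were lower, with a median of -0.55. Shmt1, which makes one-carbon units for thymidylate, went from 117 ± 9.84 to 41.3 ± 4.83 kb (mean ± SD, n = 3; log2 fold change -1.51, SE 0.11, adjusted p = 1.95e-06). Mthfd1, of the same folate pathway, went from 174 ± 4.58 to 78.8 ± 9.86 kb (-1.15, adjusted p = 5.91e-06). Impdh2, an enzyme of guanine nucleotide synthesis, fell from 29.7 ± 3.61 to 12.9 ± 3.67 kb (-1.24, adjusted p = 0.000412). Of 8 other polymerase and Okazaki genes 4 fell, among them the RNase H2 subunit genes Rnaseh2b (from 17.8 ± 2.95 to 8.8 ± 0.232 kb, -1.0, adjusted p = 0.00051) and Rnaseh2a (-0.89, adjusted p = 0.00106), the nuclease gene Dna2 (-0.94, adjusted p = 0.000402) and Pold3 (-0.35, adjusted p = 0.0163). Rnaseh2c, a further subunit of RNase H2, did not pass (-0.33, adjusted p = 0.124). The call of Pold3 was lost without con1 (0.0597), con3 (0.0529) or mut3 (0.0653). Of 7 other licensing genes 1 fell, a smaller share than the 24.6% of all genes, Mcmbp (-0.26, adjusted p = 0.0205), an Mcm-binding protein, lost without con1 (0.0777), con2 (0.0811) or mut3 (0.0506) and without the variance trend (0.0504). Orc3, Orc4 and Orc5, core subunits of the origin complex, did not pass (log2 fold changes -0.04, -0.32 and -0.26).

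Of 9 other firing factors 5 fell, the largest being Dbf4, the activator of the Cdc7 kinase (from 59 ± 5.75 to 38.5 ± 4.76 kb, -0.62, adjusted p = 0.00149), Wdhd1 (-0.62, adjusted p = 0.00267), Rif1 (-0.58, adjusted p = 0.00103) and Mtbp (-0.46, adjusted p = 0.0221). Mtbp lost its call without con1 (0.0825), con2 (0.0702), mut1 (0.0648) or mut3 (0.0871) and under quantile normalization (0.058) or without the variance trend (0.0513). Cdc7 itself did not pass (-0.28, adjusted p = 0.143). Of 10 genes of fork protection and checkpoint 5 fell. Chek1, the checkpoint kinase, went from 26.3 ± 2.66 to 16.9 ± 3.09 kb (-0.65, adjusted p = 0.00523), and Tipin (-0.72, adjusted p = 0.00635), Hus1 (-0.62, adjusted p = 0.0169) and Clspn (-0.49, adjusted p = 0.0262) fell too. These calls were lost after adjusting for length and GC (0.0561) for Tipin, without con1 (0.0687) for Hus1 and without con1 (0.111), con2 (0.066), mut1 (0.069) or mut3 (0.11) and without the variance trend (0.0751) for Clspn. Of 7 other chromatin genes 5 fell, led by the remodeller gene Hells (from 64.2 ± 9.21 to 34.8 ± 8.13 kb, -0.90, adjusted p = 0.000863), the histone chaperone genes Nasp (-0.82, adjusted p = 0.00046) and Asf1b (-0.67, adjusted p = 0.00378), and Cdca7 (-0.58, adjusted p = 0.00311). Of 6 measured cohesion genes 3 fell, the acetyltransferase gene Esco2 (-0.84, adjusted p = 0.000651), Chtf18 (-0.78, adjusted p = 0.00134) and Rad21 (-0.37, adjusted p = 0.00947), the last lost without con2 (0.0514). Among 17 genes of the E2F and RB network and S phase kinases 8 fell. They included Rb1 (-0.78, adjusted p = 0.00102), which restrains E2F, Mybl2 (-0.73, adjusted p = 0.00299), Tfdp1 (-0.67, adjusted p = 0.000462), the partner of E2F proteins, and Ccna2, the S phase cyclin (-0.65, adjusted p = 0.00179). Cdk2 did not pass (-0.18, adjusted p = 0.0962). With the authors' p-values the calls of Chek1 (0.0513), Asf1b (0.0566), Mybl2 (0.0653) and Ccna2 (0.0569) were lost. Those of Mtbp, Tipin, Hus1, Clspn and Rad21 were lost there too.

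Genes of mitosis, the stage after S phase, fell in 14 of 20 cases, against 24.6% of all genes called lower. Their median of -0.48 was close to the -0.45 of the 48 replication genes, where that of all genes was -0.03. Examples of mitosis genes that fell were Cdc20 (-0.98, adjusted p = 0.000131), Ccnb1 (-0.86, adjusted p = 0.000106), Birc5 (-0.85, adjusted p = 0.00121) and Bub1 (-0.73, adjusted p = 0.00161). The call of Bub1 was lost with the authors' p-values (0.0567). Mki67, the standard marker of cycling cells, did not pass, at 583, 610 and 432 kb in control and 498, 734 and 404 kb in mutant, where mut2 was highest of all (log2 fold change -0.02, SE 0.19, adjusted p = 0.945). Mki67, Rnaseh2c, Orc3, Orc4, Orc5, Cdc7 and Cdk2 were singled out after their values were seen.

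**Figure D4:**
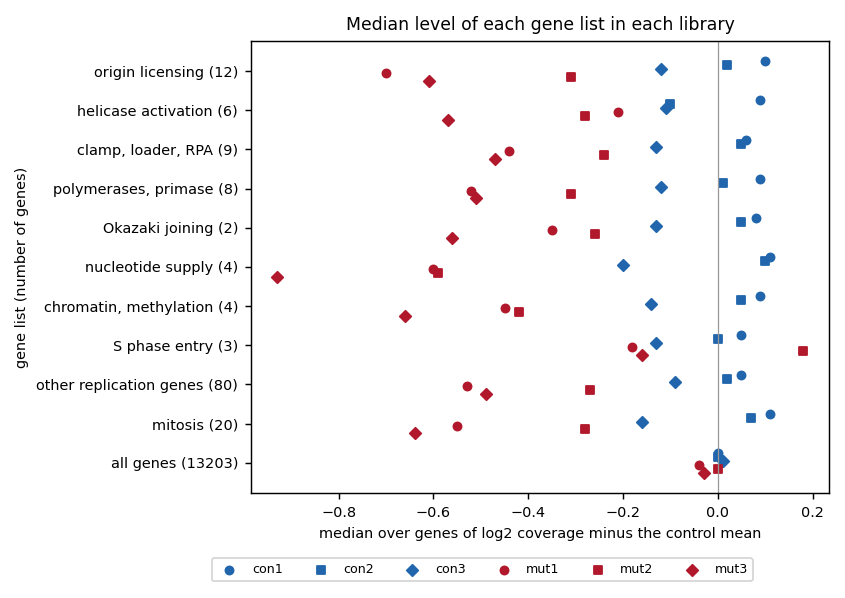
Median over the genes of each list of log2 coverage minus the control mean, per library (blue control, red mutant, with a symbol for each library). For nucleotide supply the mutant medians were -0.60, -0.59 and -0.93, for licensing -0.70, -0.31 and -0.61 and for polymerases -0.52, -0.31 and -0.51, while medians of all genes stayed between -0.04 and 0.01.

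Markers of several cell types in the organ moved in the same libraries. Over all genes 24.6% were called lower and 21.5% higher. Of 8 nephron progenitor markers 6 fell and 2 rose, and their summed coverage was 0.238 to 0.273 Mb in control and 0.165 to 0.207 Mb in mutant. That sum includes the 2 that rose. Log2 fold changes of the 8 ran from -3.51 to 1.29, with a median of -1.14 (45.3% of control). All 11 markers of differentiated nephron segments fell, from a sum of 4.19 to 5.10 Mb to one of 1.15 to 1.32 Mb. Stroma markers rose in 7 of 8 cases, from 3.76 to 3.87 Mb to 7.20 to 8.97 Mb, with mut2 the lowest of the mutants. Ureteric markers were at 0.370 to 0.378 Mb and 0.325 to 0.338 Mb, with 2 lower and 2 higher of 7, near the shares of all genes. Endothelial markers rose in 3 of 7 cases and fell in 1, at 1.05 to 1.12 Mb and 1.27 to 1.28 Mb. Leukocyte markers rose in 4 of 5 measured cases (0.0627 to 0.0660 Mb against 0.132 to 0.144 Mb) and erythroid markers in 3 of 5 (0.118 to 0.125 Mb against 0.188 to 0.223 Mb). No measured marker was at 0 in any library. The part of these shifts in the lower replication transcripts was not tested.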

How the data were processed

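Total RNA of 3 E17.5 kidneys per genotype was depleted of ribosomal RNA and made into Ion Total RNA-seq libraries, per the labels' protocols. The authors deposited 1 coverage signal per gene and library. Judged from the values, it is bases covered, scaled to 976 to 977 Mb per library and not divided by length. Low values were whole multiples of 1 step per library in 100% of cases (tolerance 0.02 of a step), and dividing by that step gave the unscaled depths of 726 to 1210 Mb. These are bases, not reads, so no counting intervals are given. The step was the lowest value of each library except mut1. For mut1 it was picked by a search over divisions of the lowest value for whole multiples. The 100% of mut1 was set by that choice, and its unscaled depth of 934 Mb rests on it. The authors also deposited a ratio of group means and a p-value and q-value per gene. Build mm10 and bedtools stand in the submitters' processing notes; aligner, annotation, strand setting and the authors' test are not given in the sources used here.

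Values were taken as log2(value + 1) for all 13203 genes, without a further filter, and fitted by limma (version 3.58.1, under R 4.3.3; empirical Bayes with a variance trend, Benjamini-Hochberg over all genes, threshold 0.05). The procedure was tested on simulated data. Group comes from the column names, whose running numbers are not the animal numbers of the titles. Ratios were compared by exact two-sided permutation tests. Gene positions and exon lengths came from the mouse reference annotation, which matched 13092 genes, and promoters from RefSeq (GRCm38.p6). The members and lists were chosen with earlier results of these data known. All 48 members are named, with up to 4 called genes of largest change from each other list. A gene that this rule would name is not reported here. Alternatives covered pseudocount, filter, scaling, variance model, length and GC trends, the authors' p-values and each library left out. Use of the longest transcript, removal of small RNA and globin coverage and removal of members that overlap a gene of the table or have a copy were added after seeing the data. Dscc1 was not analysed here.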

Additional observations from a re-analysis of the deposited data

How the results depend on the processing

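Of the 35 genes called lower, 21 were tested in all 17 alternatives and 14 in 16, since those lie below the median level. All 35 kept their sign where tested, including alternatives in which it could not change, and 12 kept their call wherever tested. The number of members called lower was 21 of 29 among genes at or above the median level, 14 with the authors' p-values, 20 of 30 without members that overlap a gene of the table or have a copy, and 22 to 38 with 1 library left out. Among those 30, Orc1, Cdc45, Rpa1 and Pole overlap annotated genes that are not in the table. Members called higher numbered 0 to 1 with 1 library left out, the 1 being Mcm6 without mut3. Licensing genes called lower numbered 5 of the 7 at or above the median level, the same 5 as with all genes tested, and 3 of 12 with the authors' p-values. Polymerase genes called lower numbered 1 of 8 with the authors' p-values and 2 to 7 with 1 library left out. Nucleotide supply genes called lower numbered 2 of 4 with the authors' p-values. Over all genes 16.7% were lower with the authors' p-values, and 2528 to 3163 of 13203 with 1 library left out. Of the 6602 genes at or above the median level 1729 (26.2%) were lower and 1547 higher. Smarca4 (-0.42) had an adjusted p of 0.0581 from the authors' p-values. The Cdt1 to Gmnn log2 difference was -0.05 under quantile normalization, -0.23 with length and GC trends removed and -0.20 to 0.17 with 1 library left out. With those trends removed Mcm4 was at 0.02, Gins2 at -0.02 and E2f1 at -0.03. With array weights Gins2 was at -0.02 and E2f1 at -0.01. Ccne1 was at -0.02 without small RNA and globin coverage. With 1 library left out Gins2 ran from -0.03 to 0.23, Ccne1 from -0.15 to 0.10 and E2f1 from -0.02 to 0.15. With the longest transcript as length, control depth per exon base was 30.8 for Pola2, 37.9 for Lig1, 65.1 for Dnmt1 and 13.2 for E2f1. The cause of these changes was not tested. No paired analysis was possible because the columns carry only running numbers that do not link a control to a mutant kidney. With 3 libraries per group, exact tests cannot go below 0.1.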
